A study of Homo sapiens with 16 samples.

Results

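The mammalian mitochondrial ribosome is built from proteins encoded in the nucleus, made in the cytosol and imported, and from ribosomal RNAs transcribed from mitochondrial DNA. Its large subunit, named with the prefix MRPL, forms peptide bonds, and its small subunit, named with the prefix MRPS, binds and decodes the mRNA. It translates the mitochondrial mRNAs, all of which code for subunits of the respiratory chain and the ATP synthase. MYC, a transcription factor that dimerises with MAX and binds the E-box, is known for raising transcripts of ribosome production and of mitochondrial biogenesis in growing B cells.

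The genes described here are the protein-coding genes of a table of 58051 gene identifiers whose symbol is MRPL or MRPS followed by a number and at most 1 further letter. There were 78 such genes, 49 of the large subunit and 29 of the small subunit, spread over 21 chromosomes. All 78 were among the 13765 genes tested, those with a mean value of at least 10, and none was lost to that filter. The symbols follow history rather than structure in a few cases. MRPS30 and MRPS18A are known to sit in the large subunit, and MRPS36 is known as a component of the 2-oxoglutarate dehydrogenase complex. Subunits are taken by symbol below unless stated.

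RNA was sequenced from P493-6 cells, an immortalised human B cell line that carries a doxycycline-repressible MYC transgene and an EBNA2 protein that is active with estrogen. Cells of the high MYC groups grew in medium without either agent. Cells of the medium MYC groups were grown for 24 h with doxycycline at 0.1 µg/mL together with β-estradiol at 1 µM, so MYC level, doxycycline, estradiol and EBNA2 activity cannot be told apart. At each level 4 samples were treated for 24 h with IMP1088 at 100 nM and 4 with DMSO. IMP1088 blocks N-myristoyltransferases, enzymes that attach a lipid to the N-terminus of proteins. All groups share this 1 line and a FBS-supplemented medium, and nothing in the labels says that the 4 samples of a group were separate cultures, so the p-values measure only the spread between these samples.

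The 16 libraries held between 8755296 and 13858534 reads and between 18899 and 21081 genes above 0. MYC itself averaged 31649 ± 2129.7 normalized counts (SD, n = 4) at high MYC in DMSO and 959 ± 48.7 at medium MYC, and the inhibitor raised it to 47542 ± 505 and 1382 ± 51.2. All 6 B cell markers were detected, with summed values of 23822 to 24000 at high and 38767 to 39481 at medium MYC in DMSO and 19245 to 20206 and 34125 to 35360 with the inhibitor. The inhibitor lowered 5 of the 6 at high and 4 at medium MYC (3 to 5 over the runs), against 16.3% and 14.6% of all tested genes. The other sums were 43.1 to 95.4 for 4 T cell markers and 56.5 to 112 for 3 epithelial markers. Summed plasma cell markers were lower at medium MYC (499 to 533 in DMSO, 927 to 1018 with the inhibitor) than at high MYC (1606 to 1636 and 1760 to 1835), and summed monocyte and fibroblast markers were higher (in DMSO 263 to 291 against 118 to 136, and 571 to 649 against 122 to 134). Single genes may carry these sums, and some markers were too low to be tested. Over the runs, 1 of 4 monocyte and 1 to 2 of 3 fibroblast markers were called higher in DMSO. Of 3 plasma cell markers 2 to 3 were called lower. Of 6 B cell markers 4 were called higher and 1 to 2 lower, against 38.9% and 37.3% of all tested genes. The part of these markers in the results below was not tested. In bulk samples, fewer cells of a type and less RNA per cell cannot be told apart.

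The promoters of 5 genes on which the results turn are shown first, as the 250 bases before the RefSeq start site on build GRCh38.p14, read 5′ to 3′ on the strand of the gene. MRPS25 had the largest fall at medium MYC and MRPL53 the largest rise. MRPL3 had the largest difference in its response to the inhibitor. MRPS2 and MRPL49 had the largest fall and the largest rise among the 9 genes with an E-box in the window searched. Capitals mark matches to the E-box CACGTG, the ETS motif CCGGAAG or the YY1 core AAGATGG on either strand, and their absence elsewhere says only that these letters are not there. MRPS2 and MRPL49 have more than 1 annotated start, of which 1 is shown.
MRPS25 (chr3:15065316-15065565, minus strand): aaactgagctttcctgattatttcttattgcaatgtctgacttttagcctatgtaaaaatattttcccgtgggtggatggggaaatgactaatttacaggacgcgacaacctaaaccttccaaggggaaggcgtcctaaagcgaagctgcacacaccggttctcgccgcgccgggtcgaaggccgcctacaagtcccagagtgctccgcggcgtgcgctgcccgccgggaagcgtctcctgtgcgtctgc
MRPL53 (chr2:74472681-74472930, minus strand): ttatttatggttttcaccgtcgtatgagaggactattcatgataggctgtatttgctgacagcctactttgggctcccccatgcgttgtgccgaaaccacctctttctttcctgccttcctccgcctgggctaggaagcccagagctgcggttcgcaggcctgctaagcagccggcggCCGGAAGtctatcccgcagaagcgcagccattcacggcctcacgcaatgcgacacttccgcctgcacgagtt
MRPL3 (chr3:131502972-131503221, minus strand): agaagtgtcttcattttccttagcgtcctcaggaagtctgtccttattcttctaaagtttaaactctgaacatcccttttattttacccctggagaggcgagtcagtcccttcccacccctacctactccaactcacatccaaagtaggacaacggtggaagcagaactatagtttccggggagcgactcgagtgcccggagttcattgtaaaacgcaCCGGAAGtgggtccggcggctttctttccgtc
MRPS2 (chr9:135499715-135499964, plus strand): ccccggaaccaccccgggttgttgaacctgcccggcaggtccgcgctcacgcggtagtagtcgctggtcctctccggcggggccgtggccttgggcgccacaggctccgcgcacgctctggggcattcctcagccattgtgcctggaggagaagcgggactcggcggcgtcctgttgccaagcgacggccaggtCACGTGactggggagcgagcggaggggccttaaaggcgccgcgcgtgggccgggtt
MRPL49 (chr11:65121933-65122182, plus strand): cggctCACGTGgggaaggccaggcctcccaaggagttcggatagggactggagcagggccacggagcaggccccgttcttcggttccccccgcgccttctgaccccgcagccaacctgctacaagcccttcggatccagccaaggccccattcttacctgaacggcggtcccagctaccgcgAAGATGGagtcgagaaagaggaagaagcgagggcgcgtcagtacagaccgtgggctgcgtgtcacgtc

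Among the 69 mitochondrial ribosomal protein genes with a RefSeq window of 300 bases, 250 before to 50 after the start, 9 (13.0%) held CACGTG on either strand. The share was also 13.0% among 9349 tested genes with such a window, and 8.77% among 27305 symbols. A gene with more than 1 window was counted once, if any of its windows held the match, so genes with more windows had more chances of a match. The YY1 core AAGATGG was found for 24 genes (34.8%), against 10.1% of tested genes, and CCGGAAG for 30 (43.5%), against 24.2%. The NRF1 half-core GCGCATG was found for 7 genes (10.1%, against 9.15%) and the GC box GGGCGG for 42 (60.9%, against 76.8%). The ETS motif and the YY1 core can share the letters AAG, in which case both were counted. A match is a description of the sequence, not a binding site. The 9 genes with an E-box had a median log2 change of -0.35 at medium MYC in DMSO, ranging from -1.26 in MRPS2 to 0.12 in MRPL49. The other 60 genes had a median of -0.49. The medians were -0.54 with and -0.47 without the YY1 core, and -0.43 with and -0.62 without the ETS motif.

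The first comparison set medium against high MYC in the DMSO libraries. Of the 78 genes, 65 were lower at medium MYC, 4 were higher and 9 did not pass the test (limma on log2(value + 1), adjusted p below 0.05 over all 13765 genes). Over all tested genes 76.2% were called, 37.3% lower and 38.9% higher. The median log2 change of the 78 genes was -0.48, a value 1.39 times lower, against 0.02 over all tested genes. The 4 libraries of each group did not overlap for 64 genes that were lower and 3 that were higher, where 33.6% and 35.6% of all tested genes showed such a separation. In the whole set, 15 genes were called at least 2-fold lower, against 10.7% of all tested genes.

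**Figure D1:**
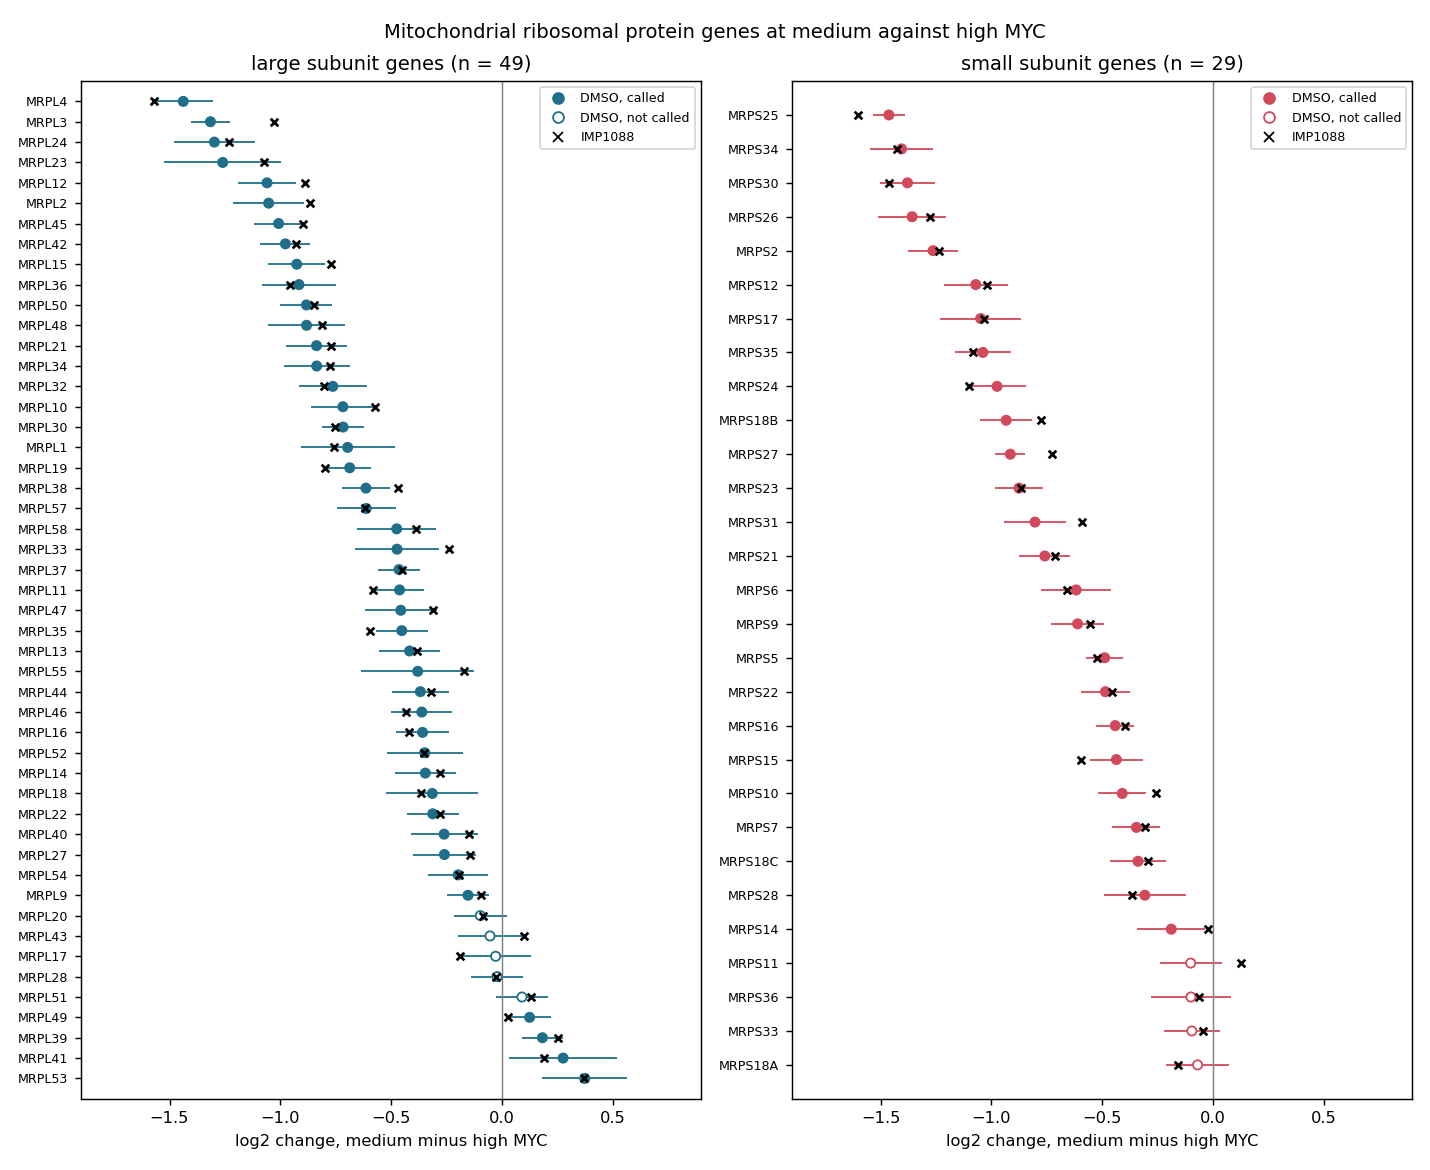
Log2 change at medium against high MYC for each mitochondrial ribosomal protein gene, with large subunit genes on the left and small subunit genes on the right. Circles are the DMSO libraries with 95% intervals, filled where the change was called, and crosses are the IMP1088 libraries (4 libraries a group). Changes in DMSO run from -1.46 in MRPS25 to 0.37 in MRPL53, and 60 genes were called lower in both sets of libraries.

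Summed over the genes of a subunit, the large subunit took 2291 to 2392 CPM (the sum scaled by the library's total) at high MYC in DMSO and 1580 to 1611 at medium MYC. The small subunit took 2005 to 2051 at high MYC and 1162 to 1177 at medium MYC. With the inhibitor the large subunit took 2300 to 2378 at high and 1615 to 1656 at medium MYC, and the small subunit 1955 to 1996 and 1161 to 1188. Every library of a medium MYC group lay below every library of a high MYC group, for both subunits. With the inhibitor the small subunit sums at high MYC lay just below those in DMSO and the large subunit sums at medium MYC just above them, while the other pairs of groups overlapped.

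**Figure D2:**
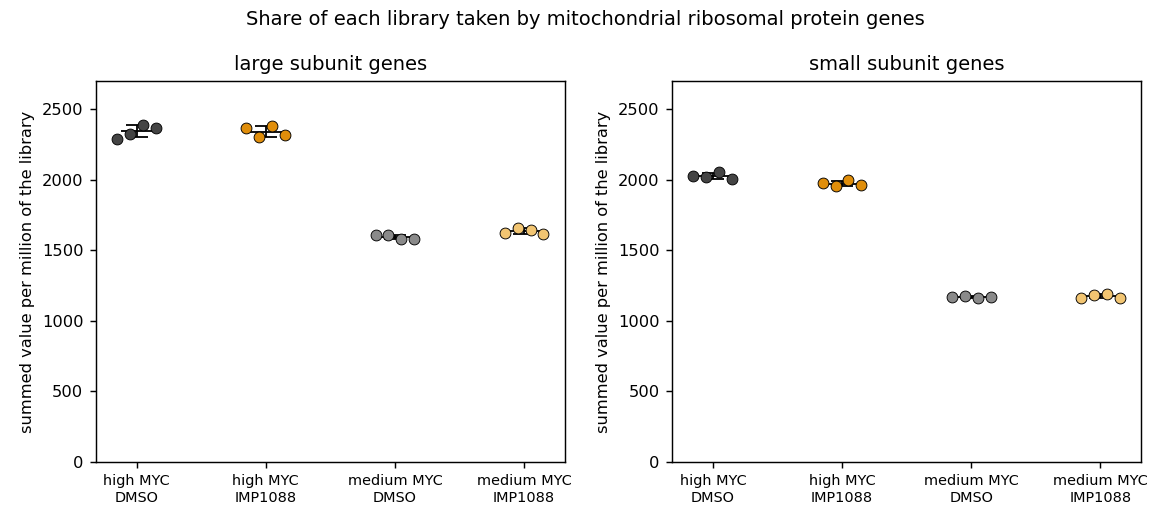
Summed value of the large (left) and small (right) subunit genes in CPM, in each of the 16 libraries, with group mean and SD. Medium MYC libraries lie between 1580 and 1656 for the large subunit and between 1161 and 1188 for the small subunit, all below the high MYC libraries.

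Among large subunit genes, 40 of 49 were lower at medium MYC and 4 were higher, with a median log2 change of -0.46. Over all tested genes 37.3% were lower and 38.9% higher. Among small subunit genes, 25 of 29 were lower and none was higher (DESeq2 and edgeR also called 65 genes lower and 4 higher in all), with a median of -0.62. The large subunit median was thus 0.16 above that of the small subunit, and 0.23 above it when MRPS30 and MRPS18A were counted in the large subunit and MRPS36 was left out. No test of this difference between lists was made. The mean log2 level of large minus small subunit genes was -0.46 ± 0.02 (SD, n = 4) at high MYC in DMSO and -0.28 ± 0.02 at medium MYC, and with the inhibitor it was -0.44 ± 0.02 and -0.25 ± 0.01. The 4 libraries of each medium MYC group were all above the 4 of the matching high MYC group.

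By evolutionary origin, 29 large subunit proteins have a counterpart in the bacterial ribosome. Of their genes 26 were lower at medium MYC and none was higher, where 37.3% of all tested genes were lower and 38.9% higher. The median of these 29 genes was -0.69. The 22 mitochondria-specific proteins of the large subunit, MRPS30 and MRPS18A included, held all 4 genes that rose, with 15 lower and a median of -0.36. In the small subunit, 15 of 16 genes of bacterial type were lower, with a median of -0.47, and 9 of 10 mitochondria-specific genes, with a median of -0.92. The order of the classes was thus opposite in the subunits, with mitochondria-specific genes the less lowered in the large subunit and the more lowered in the small one. The differences between these classes were not tested.

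The largest fall was that of MRPS25 (ENSG00000131368), a mitochondria-specific protein of the small subunit, which lies on the minus strand of chromosome 3 at 15042460 to 15065335 on GRCh38. Its normalized counts were 1658, 1689, 1606 and 1700 in the high MYC libraries in DMSO and 628, 604, 592 and 587 in the medium MYC libraries. All 4 medium MYC libraries were far below all 4 high MYC libraries. The change was -1.46 (SE 0.04, 2.76 times lower, limma adjusted p = 1.95e-19). Its exons overlap those of NR2C2 on the opposite strand, and since the strand setting of the counting is not given in the sources used here, reads of the 2 genes may not be separable.

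MRPL4, a large subunit protein with a bacterial counterpart near the peptide exit tunnel, had 1082, 1006, 936 and 986 normalized counts at high MYC and 325, 382, 391 and 381 at medium MYC. The groups were well apart, although 1 medium MYC library was lower than the other 3. The change was -1.44 (SE 0.06, 2.71 times lower, limma adjusted p = 7.27e-15).

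MRPS34, which has no bacterial counterpart, had 1060, 1020, 970.1 and 913 at high MYC and 366, 369.8, 416 and 343 at medium MYC, without overlap. It fell by 1.41 on the log2 scale (SE 0.07, limma adjusted p = 3.19e-14). Per kilobase of exon MRPS34 was also the most abundant of the 78 genes, at 589 normalized counts per kilobase averaged over the 16 libraries, ahead of MRPL12 at 495 and MRPL37 at 428. The least abundant per kilobase were MRPL46 at 49.8, MRPS33 at 55.1 and MRPL48 at 58.0.

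MRPS30, a large subunit protein despite its name, had 1126, 1162, 1337 and 1254 at high MYC and 479, 449, 448 and 496 at medium MYC, and fell by 1.38 (SE 0.06, limma adjusted p = 5.10e-15). MRPS26, mitochondria-specific and of the small subunit, had 462, 430.1, 384 and 419 and 175, 151, 165 and 168, and fell by 1.36 (SE 0.07, limma adjusted p = 2.04e-13). In both genes every medium MYC library was below every high MYC library. Neither gene shares exons with another gene or has a pseudogene named after it in the annotation, as was the case for 20 of the 78 genes.

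Another 10 genes were called at least 2-fold lower. They were MRPL3 (-1.32), MRPL24 (-1.30), MRPS2 and MRPL23 (both -1.26), MRPS12 (-1.07), MRPL12 (-1.06), MRPL2 and MRPS17 (both -1.05), MRPS35 (-1.04) and MRPL45 (-1.01). MRPL3 and MRPL2 are relatives of the bacterial proteins that shape the peptidyl transferase centre. MRPL12 is the stalk protein, which recruits translation factors, and MRPS12 is part of the decoding centre. Of the 15 genes at least 2-fold lower, 7 carry an MRPL and 8 an MRPS symbol.

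Some genes rose against this direction. MRPL53, mitochondria-specific and of the large subunit, had 169, 181, 188 and 193 at high MYC and 248, 216, 281 and 209 at medium MYC. The groups did not overlap, and the change was 0.37 (SE 0.09, limma adjusted p = 0.000930). MRPL39, of the same class, had 441, 463, 466 and 497 and 534, 533, 526 and 525, again without overlap, and changed by 0.18 (SE 0.04, limma adjusted p = 0.000934). MRPL53 shares exons with CCDC142 on the same strand and has a pseudogene named after it, whereas MRPL39 has neither. With a correction for GC content MRPL53 changed by 0.17 (limma adjusted p = 0.0791). MRPL39 kept its call with that correction, and lost it where a replicate block was added (0.09, limma adjusted p = 0.0643).

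The other risers were MRPL41, at 0.28 (SE 0.12, limma adjusted p = 0.0385), and MRPL49, at 0.12 (SE 0.05, limma adjusted p = 0.0175). MRPL41 had 304, 272, 267 and 305 at high MYC and 373, 349, 411 and 270.0 at medium MYC, and its groups overlapped through the fourth medium MYC library. Its call was lost without high MYC DMSO library 2 (0.25, limma adjusted p = 0.0867) or library 3 (0.24, 0.0931), and without medium MYC DMSO library 1 (0.24, 0.0981), 2 (0.27, 0.0667) or 3 (0.19, 0.142). It was also lost without a filter (limma adjusted p = 0.0633), without the trend (0.0774) and with a replicate block (0.0515). MRPL49 lost its call without high MYC DMSO library 2 (0.09, limma adjusted p = 0.0786) or medium MYC DMSO library 3 (0.10, 0.0555), and with a GC correction it was at -0.08 (0.130). The exons of MRPL49 overlap FAU and SYVN1 on the opposite strand.

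Of the 65 falls, 64 kept their call in every alternative run, the exception being MRPS14 at -0.19 (limma adjusted p = 0.0261). MRPS14 lost its call without high MYC DMSO library 2, or medium MYC DMSO library 1 or 3 (log2 change -0.12 to -0.18, limma adjusted p = 0.0503 to 0.140). The 9 genes that did not pass the test ran from -0.10 to 0.09. They were MRPS11, MRPS36, MRPL20, MRPS33, MRPS18A, MRPL43, MRPL17, MRPL28 and MRPL51. For MRPL28 the 95% interval of the log2 change was -0.14 to 0.09, and for MRPS33 -0.22 to 0.03, so a 2-fold fall of either transcript lay outside these intervals. MRPS36, whose protein is not a ribosome subunit, was at -0.10 (limma adjusted p = 0.295), and its 95% interval was -0.28 to 0.08.

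**Figure D3:**
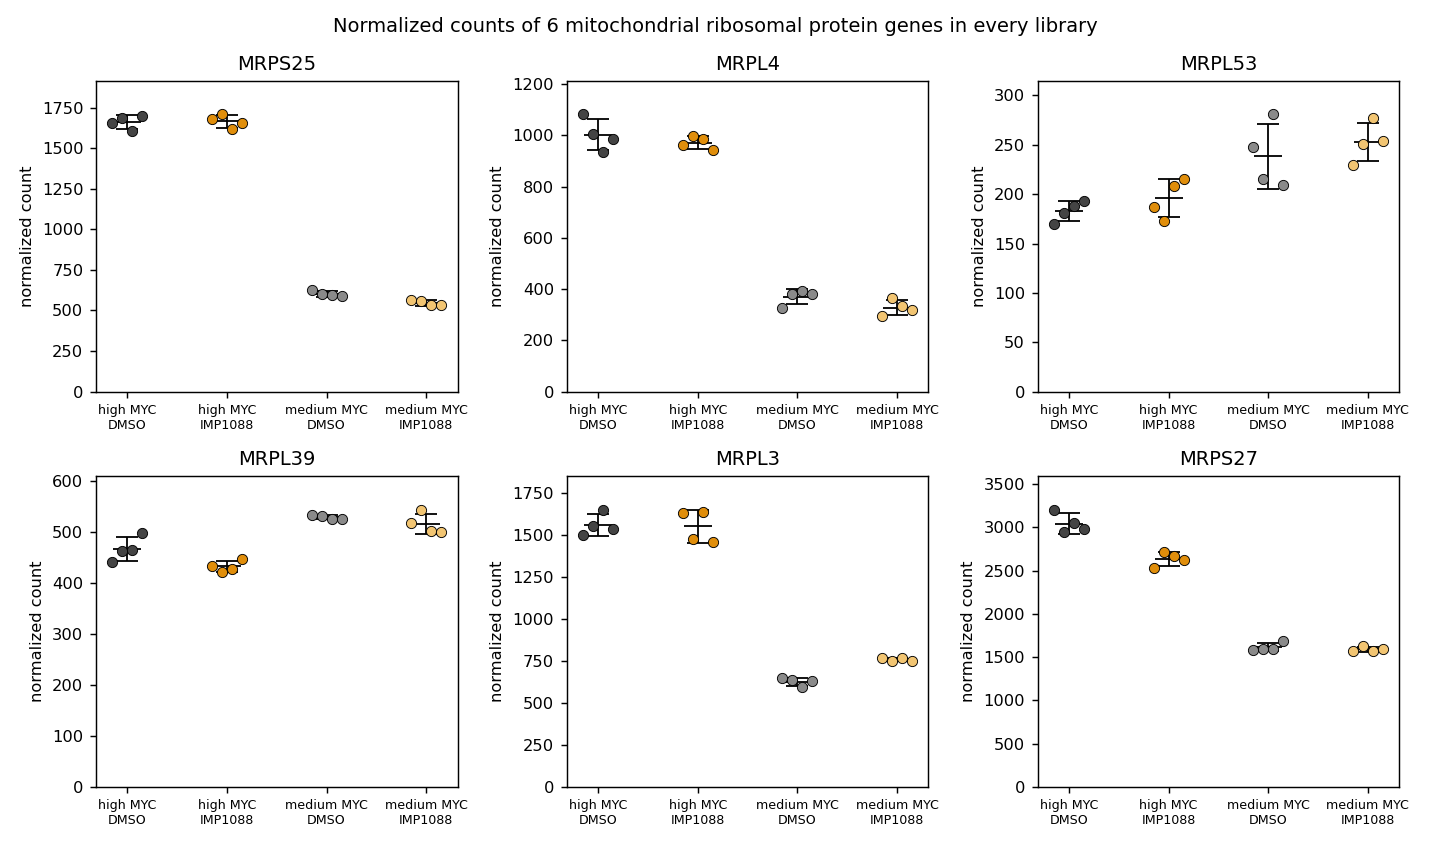
Normalized counts of MRPS25, MRPL4, MRPL53, MRPL39, MRPL3 and MRPS27 in every library (points), with group mean and SD (n = 4), on axes that start at 0. MRPS25 falls from 1606 to 1700 at high MYC to 587 to 628 at medium MYC in DMSO, MRPL53 and MRPL39 are higher at medium MYC, MRPL3 is higher with the inhibitor at medium MYC, and MRPS27 is lower with it at high MYC.

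The same comparison in the inhibitor libraries used 8 other libraries. There 62 of the 78 genes were lower at medium MYC and 3 were higher, where 77.5% of all tested genes were called, 37.8% lower and 39.7% higher. The groups did not overlap for 59 genes that were lower and 2 that were higher, against 35.4% and 37.2% of all tested genes. The median was -0.54, against 0.02 over all tested genes, with 37 of 49 large subunit genes (median -0.43) and 25 of 29 small subunit genes (median -0.60) lower. Across the 78 genes the changes in the DMSO and in the inhibitor libraries had a Pearson r of 0.97, against 0.957 across all tested genes, which share the same libraries and are not independent. The sign was the same for 76 genes, and 60 genes were called lower and 2 called higher in both. The largest falls were again MRPS25 (-1.60), MRPL4 (-1.57), MRPS30 (-1.46), MRPS34 (-1.42) and MRPS26 (-1.28).

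Under inhibitor the higher genes were MRPL53 (0.37, limma adjusted p = 0.00103), MRPL39 (0.25, limma adjusted p = 2.99e-05) and MRPL51 (0.13, limma adjusted p = 0.0410). The call of MRPL53 was again lost with a GC correction (0.14, limma adjusted p = 0.142). MRPL51, of the mitochondria-specific class, lost its call without any 1 of the high MYC inhibitor libraries 2, 3 and 4 and the medium MYC inhibitor libraries 1, 2 and 4, with log2 changes of 0.11 to 0.13 and limma adjusted p-values of 0.0666 to 0.116. With a GC correction MRPL51 turned to -0.025 (limma adjusted p = 0.699), and edgeR, DESeq2, TMM scaling, no filter and no trend also lost its call (adjusted p = 0.0516, 0.0631, 0.0522, 0.0682 and 0.0624). Among the 62 genes that were lower, the calls of MRPL33 (-0.24, limma adjusted p = 0.0218), MRPL17 (-0.19, 0.0280) and MRPS18A (-0.16, 0.0386) depended on single libraries. MRPL33 lost its call without high MYC inhibitor library 4, or medium MYC inhibitor library 2 or 4 (log2 change -0.19 to -0.22, limma adjusted p = 0.0544 to 0.0765). MRPL17 lost its call without high MYC inhibitor library 2 or 4, or medium MYC inhibitor library 1 or 3 (log2 change -0.13 to -0.18, limma adjusted p = 0.0542 to 0.121). MRPS18A lost its call without high MYC inhibitor library 2, 3 or 4, or medium MYC inhibitor library 1, 2 or 4 (log2 change -0.12 to -0.17, limma adjusted p = 0.0507 to 0.127). MRPS18A was also not called without a filter (limma adjusted p = 0.0616) or without the trend (0.0548).

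The inhibitor changed few of these genes. At high MYC 6 of 78 were lower and none was higher, where 26.8% of all tested genes were called, 16.3% lower and 10.5% higher. The median log2 change was -0.02, the same as over all tested genes. The 4 libraries of each group did not overlap for 6 genes that were lower and none that was higher, against 15.8% and 10.9% of all tested genes. By DESeq2 on the recovered reads 3 were lower and none higher, and by edgeR 6 and none. Intervals of 95% over the 78 genes reached down to -0.46 and up to 0.30 on the log2 scale.

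MRPS27, a mitochondria-specific protein of the small subunit and the gene with the highest mean of the 78 (2221 normalized counts), had 3208, 2942, 3047 and 2981 at high MYC in DMSO and 2534, 2718, 2666 and 2619 with the inhibitor. Every inhibitor library was lower than every DMSO library. The change was -0.21 (SE 0.03, limma adjusted p = 5.52e-05). At medium MYC it had 1581, 1596, 1593 and 1686 in DMSO and 1570, 1631, 1573 and 1590 with the inhibitor, which overlapped, with a change of -0.02 (limma adjusted p = 0.706). The difference between the responses at high and at medium MYC was itself called, at -0.19 (SE 0.05, limma adjusted p = 0.0115). Its exons overlap PTCD2 on the opposite strand.

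The other genes called lower at high MYC were MRPL24 (-0.26, limma adjusted p = 0.0291), MRPS31 (-0.20, 0.0322), MRPL12 (-0.18, 0.0321), MRPL28 (-0.17, 0.0296) and MRPL38 (-0.15, 0.0371). MRPL24 lost its call without high MYC DMSO library 1, 2 or 3, or high MYC inhibitor library 1, 2 or 3 (log2 change -0.23 to -0.27, limma adjusted p = 0.0543 to 0.0853). MRPS31 lost its call without high MYC DMSO library 1, 2 or 4, or high MYC inhibitor library 1, 2 or 4 (log2 change -0.16 to -0.20, limma adjusted p = 0.0538 to 0.109). MRPL12 lost its call without high MYC DMSO library 2 or 4, or high MYC inhibitor library 1 or 2 (log2 change -0.16 to -0.18, limma adjusted p = 0.0682 to 0.0946). MRPL28 lost its call without high MYC DMSO library 2 or 3, or high MYC inhibitor library 1, 3 or 4 (log2 change -0.14 to -0.16, limma adjusted p = 0.0593 to 0.0955). MRPL38 lost its call without high MYC DMSO library 1 or 2, or high MYC inhibitor library 2 or 3 (log2 change -0.13 to -0.14, limma adjusted p = 0.0932 to 0.113). With a GC correction the calls of MRPL12 (-0.085, limma adjusted p = 0.322), MRPL24 (-0.22, 0.0752), MRPL28 (-0.075, 0.344) and MRPL38 (-0.057, 0.371) were lost, the changes of MRPL12, MRPL28 and MRPL38 shrinking by more than 2 times. Quantile normalization took away all 5 calls, the analysis without a filter those of MRPL12, MRPL28, MRPL38 and MRPS31, and DESeq2 those of MRPL28, MRPL38 and MRPS31. Equal library totals took away the calls of MRPL38 and MRPS31, a replicate block that of MRPL38, and a fit without the trend that of MRPL12.

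At medium MYC the inhibitor left 8 of 78 genes lower and 4 higher, where 26.3% of all tested genes were called, 14.6% lower and 11.7% higher. With libraries scaled to equal totals 5 were lower and 8 higher, and by DESeq2 7 were lower and 1 higher. The median was 0.01, against -0.01 over all tested genes, and intervals of 95% over the 78 genes reached down to -0.55 and up to 0.49. The groups did not overlap for 7 genes that were lower and 5 that were higher, against 15.4% and 12.4% of all tested genes. Of the genes called, 5 belonged to the large subunit and were lower, 4 to the large subunit and were higher, and 3 to the small subunit and were lower.

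MRPL3 had the largest rise, with 648, 637, 592 and 632 in DMSO and 768, 753, 768 and 749 with the inhibitor, each inhibitor library above each DMSO library. The change was 0.28 (SE 0.04, limma adjusted p = 4.39e-05). At high MYC MRPL3 had 1505, 1555, 1654 and 1536 in DMSO and 1631, 1479, 1641 and 1463 with the inhibitor, which overlapped, with a change of -0.01 (limma adjusted p = 0.902). The difference between these responses was called, at -0.29 (SE 0.06, limma adjusted p = 0.00383). MRPL3 is not among the 20 genes that neither share exons with another gene nor have a pseudogene named after them. MRPL3 and MRPS27 were the only ones of the 78 called in this difference, where 8.63% of all tested genes were called, 5.33% with a lower and 3.31% with a higher change at high MYC.

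The genes called lower with the inhibitor at medium MYC in every alternative run were MRPS15, MRPL49 and MRPS25. MRPS15, a small subunit protein with a bacterial counterpart, had 515, 515, 589 and 576 in DMSO and 490.5, 467, 479 and 434 with the inhibitor, without overlap, and changed by -0.23 (SE 0.06, limma adjusted p = 0.00438). MRPL49 had 635, 616, 668 and 643 and 586, 546, 575 and 559.6, without overlap, and changed by -0.18 (SE 0.05, limma adjusted p = 0.00619). MRPS25 had 628, 604, 592 and 587 and 565, 559, 533 and 533, without overlap, and changed by -0.14 (SE 0.04, limma adjusted p = 0.00547). The responses of these 3 genes at high MYC were not called, and the differences between the levels were not called either.

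Another 8 genes were called at medium MYC, each of which lost its call without certain libraries. They were MRPL18 (-0.30, limma adjusted p = 0.0282), MRPS18A (-0.20, 0.0311), MRPL4 (-0.17, 0.0491), MRPL35 (-0.17, 0.0319) and MRPL28 (-0.17, 0.0254) on the lower side, and MRPL33 (0.26, 0.0386), MRPL10 (0.19, 0.0443) and MRPL45 (0.18, 0.0146) on the higher side. MRPL18 lost its call without medium MYC DMSO library 1 or 2, or medium MYC inhibitor library 2, 3 or 4 (log2 change -0.24 to -0.31, limma adjusted p = 0.0529 to 0.105). MRPS18A lost its call without medium MYC DMSO library 3 or 4, or medium MYC inhibitor library 1 or 4 (log2 change -0.15 to -0.20, limma adjusted p = 0.0587 to 0.123). MRPL4 lost its call without high MYC DMSO library 2 or 4, or high MYC inhibitor library 1, 2, 3 or 4, or medium MYC DMSO library 2, 3 or 4, or medium MYC inhibitor library 1, 3 or 4 (log2 change -0.12 to -0.18, limma adjusted p = 0.0567 to 0.178). MRPL35 lost its call without medium MYC DMSO library 2 or 4, or medium MYC inhibitor library 1, 2 or 4 (log2 change -0.11 to -0.17, limma adjusted p = 0.0532 to 0.142). MRPL28 lost its call without medium MYC DMSO library 3, or medium MYC inhibitor library 2 or 4 (log2 change -0.12 to -0.16, limma adjusted p = 0.0645 to 0.109). MRPL33 lost its call without medium MYC DMSO library 1, or medium MYC inhibitor library 1 or 3 (log2 change 0.16 to 0.27, limma adjusted p = 0.0614 to 0.164). MRPL10 lost its call without high MYC DMSO library 2, or high MYC inhibitor library 1 or 3, or medium MYC DMSO library 1, 2 or 4, or medium MYC inhibitor library 2 or 4 (log2 change 0.15 to 0.20, limma adjusted p = 0.0518 to 0.153). MRPL45 lost its call without medium MYC DMSO library 1, or medium MYC inhibitor library 3 (log2 change 0.15 to 0.16, limma adjusted p = 0.0535 to 0.0592). With a GC correction the calls of MRPL4 (-0.075, limma adjusted p = 0.326), MRPL28 (-0.078, 0.318), MRPL33 (0.22, 0.0770) and MRPS18A (-0.14, 0.0579) were lost. DESeq2 took away the calls of MRPL4, MRPL10, MRPL28, MRPL33 and MRPL45, and a replicate block those of MRPL4, MRPL10 and MRPL33. Without a filter MRPL4, MRPL10, MRPL33, MRPL35 and MRPS18A were not called. Without the trend the same held for MRPL4, MRPL10, MRPL35 and MRPS18A, with only the compared groups for MRPL4, MRPL10, MRPL33 and MRPL35, and with equal library totals for MRPL4, MRPL28 and MRPL35. The call of MRPL4 was lost in 25 of 31 alternatives, among them edgeR, TMM and quantile normalization.

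Across the 78 genes, the responses at high and at medium MYC, which come from separate libraries, had a Pearson r of 0.58, against 0.402 across all tested genes. The sign was the same for 54 genes, and MRPL28 alone was called at both levels, by limma without a GC correction and not by DESeq2. Its values were 425, 441, 441 and 425 and 366, 418, 377 and 383 at high MYC, and 415, 421, 474 and 399 and 395, 369.5, 382 and 367 at medium MYC, in DMSO and with the inhibitor. The inhibitor libraries were below the DMSO libraries at both levels.

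**Figure D4:**
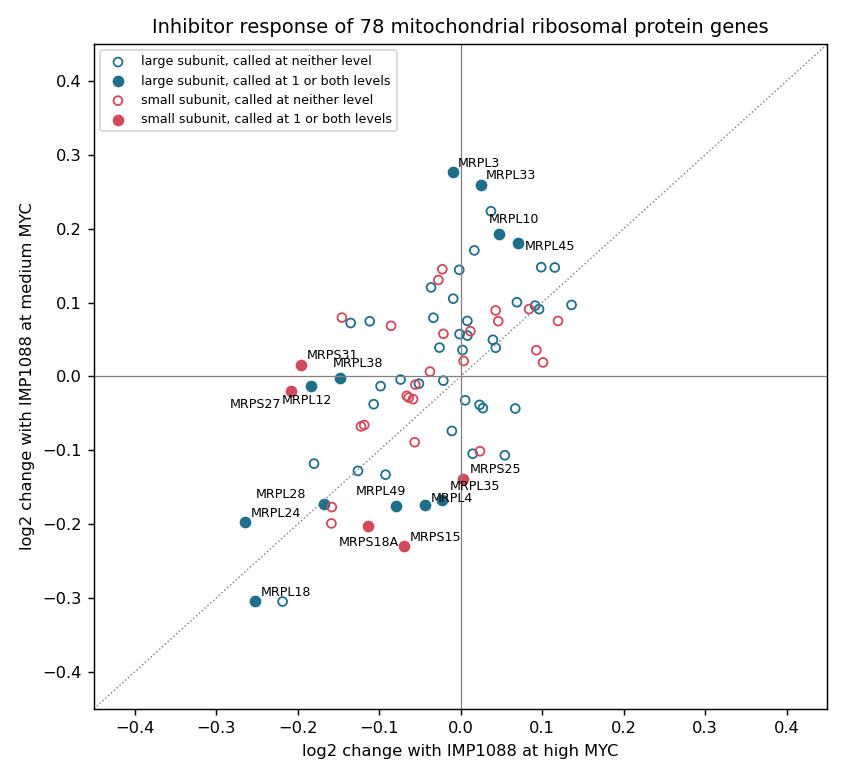
Log2 change with IMP1088 at high MYC (horizontal) and at medium MYC (vertical) for the 78 genes, on equal linear axes, with large subunit genes in blue and small subunit genes in red. Filled points were called at 1 or both levels, and the dotted line marks equal changes. MRPL3 lies at -0.01 and 0.28 and MRPS27 at -0.21 and -0.02.

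The wider apparatus of mitochondrial translation was described from lists of genes without an MRP symbol. Of 5 mitochondrial ribosomal proteins that carry other names, 4 were lower at medium MYC in DMSO, with a median of -0.59. They were PTCD3 (-0.83), GADD45GIP1 (-0.61), DAP3 (-0.59), a GTP-binding protein of the small subunit, and AURKAIP1 (-0.43), while CHCHD1 was at -0.02. In this comparison 37.3% of all tested genes were lower and 38.9% higher. Among 26 assembly factors, 21 were lower and 1 was higher, with a median of -0.69. The largest falls were those of MRM1, which methylates the large ribosomal RNA (-2.15), C1QBP (-1.82) and GTPBP10, a GTPase of large subunit assembly (-1.25). YBEY was higher (0.30, limma adjusted p = 0.00385), and with a GC correction it was not called (0.10, 0.311).

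Of 16 translation factors and their partners, 15 were lower at medium MYC in DMSO and 1 was higher, with a median of -0.66. Of all tested genes 37.3% were lower and 38.9% higher. TUFM, the mitochondrial elongation factor that delivers aminoacyl-tRNA, fell from 3704 ± 80.2 to 1207 ± 37.6 normalized counts (SD, n = 4), a change of -1.62. MRRF, the ribosome recycling factor, was at -1.26 and TSFM, the exchange factor of TUFM, at -1.25. The release factor MTRF1L was higher (0.47, limma adjusted p = 0.000226). Of 12 genes of mitochondrial transcription and its regulators, 8 were lower and 1, GABPB1, was higher (0.46), with a median of -0.24. Its largest falls were TFB2M (-1.65) and POLRMT (-1.45), the initiation factor and the RNA polymerase of mitochondrial DNA, and PPRC1 (-1.34), a coactivator. All 13 protein-coding mRNAs of mitochondrial DNA were lower, with a median of -0.42, and MT-ND1 the lowest at -0.85. Of 79 tested genes of cytosolic ribosomal proteins, 77 were lower and 2 higher, with a median of -0.81.

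With the inhibitor the cytosolic ribosomal protein genes were higher, 49 of 79 at high MYC (median 0.10) and 71 of 79 at medium MYC (median 0.19), and none was lower. Of all tested genes 10.5% were higher and 16.3% lower at high MYC, and 11.7% and 14.6% at medium MYC. Over the same comparisons the 78 mitochondrial ribosomal protein genes had none and 4 higher.

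Of 16 translation factors, 3 were higher and 1 lower at high MYC (25% called, against 26.8% of all tested genes), and 3 were higher and none lower at medium MYC (18.8%, against 26.3%). LRPPRC, which stabilises mitochondrial mRNAs, rose at both levels (0.14 and 0.21, limma adjusted p = 0.000601 and 7.09e-06), as did GFM1, an elongation factor (0.12 and 0.13, 0.0122 and 0.00621). The call of GFM1 at high MYC was lost without high MYC inhibitor library 1 (0.10, limma adjusted p = 0.0537). MTRF1L rose at high MYC (0.46, limma adjusted p = 0.00122), and MTIF3, an initiation factor, fell there (-0.29, 0.0273). MTIF3 lost its call without high MYC DMSO library 1 or 2, or high MYC inhibitor library 2, 3 or 4 (log2 change -0.24 to -0.29, limma adjusted p = 0.0549 to 0.0988). DESeq2 (adjusted p = 0.0549) and a fit of only the compared groups (0.0639) did not call it either. MTIF2, the other initiation factor, rose at medium MYC (0.16, limma adjusted p = 0.0409). MTIF2 lost its call without medium MYC DMSO library 1, 2 or 3, or medium MYC inhibitor library 1, 2 or 3 (log2 change 0.12 to 0.17, limma adjusted p = 0.0571 to 0.149). DESeq2 (adjusted p = 0.0743), a GC correction (0.0829), a replicate block (0.0679), no filter, no trend and only the compared groups also took its call away.

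Of 26 assembly factors, 1 was higher and 2 were lower at high MYC (11.5% called, against 26.8% of all tested genes). At medium MYC 2 were higher and 2 lower (15.4%, against 26.3%). DDX28 rose at high MYC (0.33, limma adjusted p = 0.00216), and at medium MYC RPUSD4 (0.26, 0.000607) and TRUB2 (0.21, 0.00293) rose while RBFA fell by 0.31 (0.00249). TFB1M, which methylates the small ribosomal RNA, fell at high MYC (-0.28, limma adjusted p = 0.0349). TFB1M lost its call without high MYC DMSO library 1, 2 or 3, or high MYC inhibitor library 2, 3 or 4 (log2 change -0.23 to -0.28, limma adjusted p = 0.0575 to 0.109). Its call was also lost by DESeq2 (adjusted p = 0.0792), without a filter (0.0541) and with quantile normalization (0.0636). MTG1, a GTPase of large subunit assembly, fell at both levels (-0.17 and -0.13, limma adjusted p = 0.0147 and 0.0485). At high MYC it lost its call without high MYC DMSO library 1, or high MYC inhibitor library 2 (log2 change -0.14, limma adjusted p = 0.0542 to 0.0549). At medium MYC it lost its call without high MYC DMSO library 2, 3 or 4, or high MYC inhibitor library 1 or 3, or medium MYC DMSO library 1, 2, 3 or 4, or medium MYC inhibitor library 1, 3 or 4 (log2 change -0.11 to -0.14, limma adjusted p = 0.0526 to 0.138). A GC correction took away both calls (-0.084 and -0.064, limma adjusted p = 0.214 and 0.354), as did DESeq2 (adjusted p = 0.0644 and 0.178) and quantile normalization, and edgeR that at medium MYC (0.0806). Of 5 ribosomal proteins with other names, PTCD3 alone was called with the inhibitor, at medium MYC (0.12, limma adjusted p = 0.00597), and its call was lost with a GC correction (0.079, 0.0532).

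**Figure D5:**
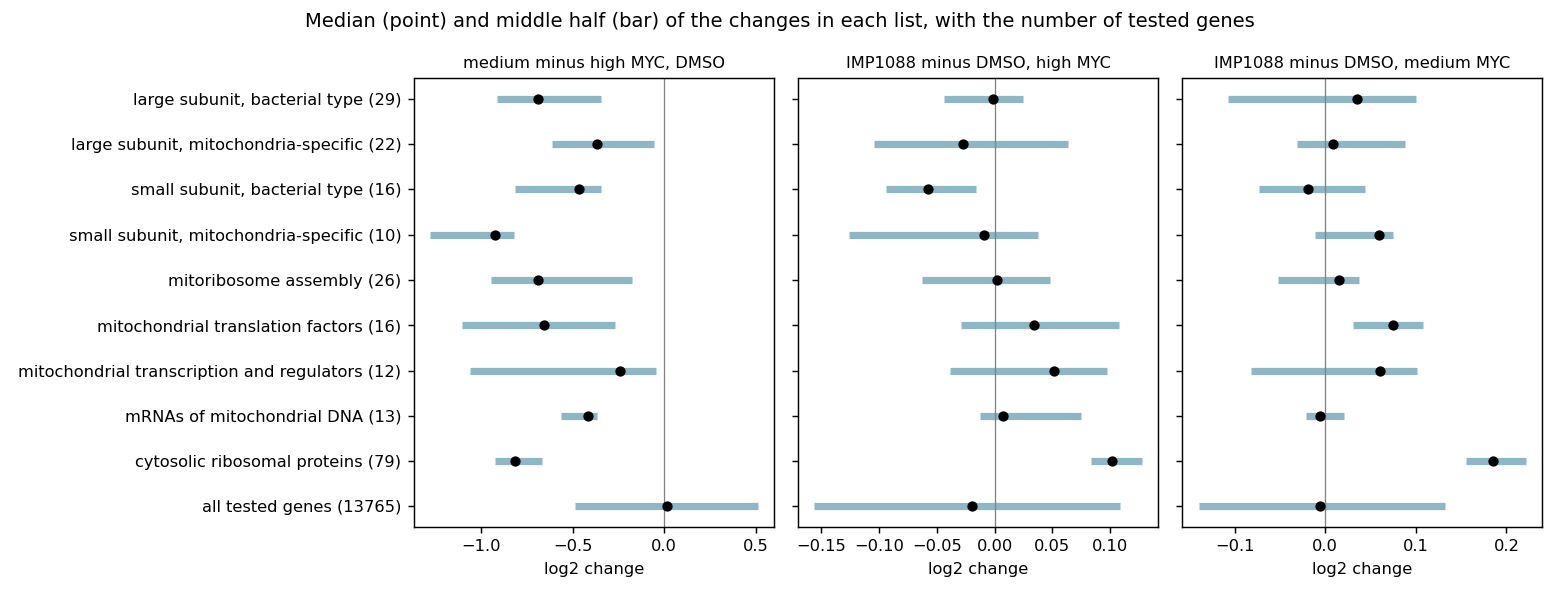
Median log2 change (point) and range from the first to the third quartile (bar) for each gene list, with the number of tested genes in parentheses, in 3 comparisons with separate linear axes. At medium against high MYC in DMSO the small subunit mitochondria-specific genes have a median of -0.92 and all tested genes 0.02. With IMP1088 the cytosolic ribosomal proteins have medians of 0.10 and 0.19, above the medians of the mitochondrial lists. The bar of the mitochondrial translation factors reaches 0.11 at both levels.

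Finally, 18 of the 78 genes (23.1%) have a protein-coding gene starting within 1000 bases on the other strand, head to head, against 11.4% of 11427 tested protein-coding genes. Of the 15 tested partners that are not mitochondrial ribosomal protein genes, 6 (40.0%) were lower and 4 (26.7%) higher at medium MYC in DMSO, against 37.3% and 38.9% of all tested genes. The median change was -0.46 for the mitochondrial ribosomal protein genes of these pairs and 0.02 for their partners. MRPL30 was at -0.72 while MITD1, which starts 21 bases away, was at 0.70 (limma adjusted p = 1.46e-09), and MRPL50 was at -0.88 while ZNF189 was at 0.51 (1.26e-06). In other pairs both genes were lower, with MRPS34 at -1.41 and EME2 at -0.53, MRPL36 at -0.92 and NDUFS6 at -0.67, and MRPL18 at -0.31 and TCP1 at -0.92. MRPS11 and MRPL46, of different subunits, start 34 bases apart, and MRPL46 was called lower (-0.36, limma adjusted p = 4.58e-05) while MRPS11 was not called (-0.10).

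The 78 genes had a median GC content of 49.2% over all their annotated transcripts, against 48.9% for all tested genes. The median length of the merged exons of a gene was 2539 against 4620.5 bases. Across the 78 genes the change at medium MYC in DMSO had a Spearman rho of -0.28 with the mean level, -0.09 with exon length and -0.03 with GC content. These are descriptions over genes that share the same libraries. Exons of 41 of the 78 genes overlap those of another gene, 29 on the opposite strand and 16 on the same strand, and 34 have a pseudogene named after them. For these genes the counting may have split or merged reads.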

How the data were processed

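RNA-seq libraries of 16 P493-6 samples, 4 in each of 4 groups, were taken from the deposited table, which holds a value for each of 58051 Ensembl gene identifiers. The values are a normalized signal: gene counts that the authors divided by a size factor for each library, deposited without the raw counts. In each library 100% of values were whole multiples of 1 step within a tolerance of 1e-06 reads, so whole reads were recovered, and "normalized counts" in the text means the deposited values. Per the submitters' processing notes, STAR 2.5.2a, RSEM 1.2.31, DESeq2 1.16.1 and build GRCh38 were used, without their roles. The annotation and the strand setting are not given in the sources used here. If reads were assigned without strand, genes that share exons exchange reads.

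A separate reference list of gene names gave a symbol for 56948 identifiers, and 57447 matched GENCODE release 29, which gave gene types, positions, exons and GC content. Replicates differed beyond sampling noise, with a chi-square per degree of freedom of 1.68 to 9.95, and none was merged. Library totals were 8755296 to 13858534 recovered reads. The fewest reads of a member in a library were 70, of MRPL55, and the most 4259, of MRPS27.

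The test was limma 3.58.1 with a mean-variance trend in R 4.3.3 on log2(value + 1), over 13765 genes whose mean value reached 10. The fit had 4 group means and 5 contrasts over all 16 libraries, with Benjamini-Hochberg adjustment over all tested genes and a threshold of 0.05. The pseudocount of 1 slightly understates the changes of low genes. edgeR 4.0.16 (quasi-likelihood) and DESeq2 1.42.0 on the recovered reads were alternatives. For medium against high MYC in DMSO they called 10556 and 10203 genes where limma called 10485, and for the inhibitor 3703 and 3165 at high MYC, against 3689, and 3858 and 3330 at medium MYC, against 3618. Other alternatives were 4 scalings, other pseudocounts and filters, no trend, only the compared groups, a block on the replicate number, a loess correction for GC content with a span of 0.5, leaving out each library, only genes without shared exons or a pseudogene, and subunits by structure. The fit was tested on simulated data.

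Genes were named by a rule: the 5 largest called rises and falls in each comparison, genes called in the difference in response, genes against the prevailing direction, the extremes of level, and up to 3 called genes of each companion list. AURKAIP1, YBEY and other called genes outside it were chosen from their values. Some companion genes due under the rule are not described above for every comparison. With the inhibitor, GABPB1 and MT-CO1 were called at high MYC and POLRMT at medium MYC. MT-CO1 lost its call without high MYC DMSO library 4, with only the compared groups and with quantile normalization. The members and lists were chosen with earlier results of these data known. MRPL55 was moved to the mitochondria-specific class after its values were seen, to follow ribosome nomenclature. Promoter windows came from RefSeq on GRCh38.p14, matched by symbol for 69 of the 78 genes.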

Additional observations from a re-analysis of the deposited data

Results flagged for a closer look

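In 6 of 112 combinations of a named gene, a subunit mean or a subunit sum with a group, 1 library of the 4 lay far from the other 3. Chance gives about 1 in 20, and all 6 were of single genes. MRPS27 was highest in 1 medium MYC library in DMSO, at 1686 normalized counts with the next at 1596. MRPL55 in the same group had 109.5 in 1 library with the next at 96.3, and MRPL4 had a lowest value of 325.4 with the next at 380.8. MRPL45 had 575.6 in 1 high MYC library in DMSO with the next at 531.7. With the inhibitor, MRPL51 had 585.0 in 1 high MYC library with the next at 535.7, and MRPS26 had 151.5 in 1 medium MYC library with the next at 177.6.

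In the test of the difference between the inhibitor responses at high and at medium MYC, MRPS27 differed by -0.19 and MRPL3 by -0.29 on the log2 scale. Both differences were called by limma in each alternative run.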

How the results depend on the processing

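Of 154 calls of a gene in a comparison, 131 were kept in every alternative, 23 were lost in at least 1 and 2 of these changed sign. These 2 were MRPL49 in DMSO and MRPL51 under inhibitor, at -0.075 and -0.025 with a GC correction, with or without a replicate block. At high MYC the number of genes changed by the inhibitor, 6 in the main analysis, was 1 after quantile normalization, 2 without a filter, 3 with a GC correction, with or without a block, 3 by DESeq2, and 1 to 7 with 1 library left out. It was 1 without DMSO library 2, 3 without inhibitor library 1 and 2 without inhibitor library 2. Their median of -0.02 was 0.015 after quantile normalization. At medium MYC 12 genes became 7 without a filter and 8 to 12 with 1 library left out. With a GC correction, with or without a block, the median at medium against high MYC was -0.64 in DMSO and -0.67 under inhibitor, while that of all tested genes moved from 0.02 to -0.09 and -0.11.

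Leaving out 1 library gave 67 to 69 called genes for medium against high MYC in DMSO (median -0.51 to -0.46, large minus small subunit 0.14 to 0.22) and 61 to 66 under inhibitor (median -0.55 to -0.51, difference 0.15 to 0.19). Without high MYC DMSO library 4 the subunit difference in DMSO was 0.22. The inhibitor medians were -0.03 to -0.01 at high and 0.01 to 0.02 at medium MYC, and the subunit differences 0.02 to 0.05 and 0.00 to 0.04. For the difference in response, 2 genes were called each time, the median was -0.05 to -0.02 and the subunit difference -0.04 to 0.01.

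The 20 genes without shared exons or a pseudogene hold only 4 of the small subunit by symbol, MRPS34, MRPS30, MRPS26 and MRPS23. MRPS34, MRPS30 and MRPS26 are among the largest falls of all, and MRPS30 sits in the large subunit, so the subunit differences here rest on few genes. Of these 20, 19 were called at medium against high MYC in DMSO (median -0.43, subunit difference 1.02) and 17 under inhibitor (-0.41 and 0.99). The inhibitor changed 1 at high MYC (subunit difference -0.091) and 2 at medium MYC (median -0.025, difference -0.076). For the difference in response 0 were called by limma, with a median of -0.0059. That 0 was fixed by the choice of genes, since MRPL3 and MRPS27 are not among the 20 and the main fit was not rerun. With subunits by structure the difference in DMSO was 0.23.

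A replicate block on the numbers of the labels left 5, 9, 2, 68 and 65 called genes in the comparisons of inhibitor at high MYC, at medium MYC, their difference, and MYC in DMSO and under inhibitor. Same-numbered libraries had mean residual correlations of -0.07 to 0.02, with single pairs from -0.15 to 0.24. Whether same-numbered libraries share more than a name cannot be told from these values, because the labels do not say what the numbers mark. The causes of these shifts were not tested. How far depth sets the error was not tested: the SE of a change was 0.12 for MRPL55, with a mean of 112.9 normalized counts, and 0.03 for MRPS27, with a mean of 2221, and also 0.12 for MRPL41.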
